A study of Mus musculus with 6 samples.

Results

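Regulators of T cells, natural killer (NK) cells and innate lymphoid cells (ILCs) were followed in stem cell-enriched bone marrow of mice without the nuclear receptors Nr4a1 and Nr4a3. The genes were Tbx21, Eomes, Id2, Id3, Gata3, Nfil3, Zbtb16, Tox, Bcl11b and Tcf7. Their members on the array were the probe sets annotated to 1 of these symbols alone, which gave 19 of 45037 probe sets and covered 9 of the 10 genes, out of 18193 genes with a probe set of their own. Tcf7, which encodes the factor TCF1, had no probe set annotated to its symbol alone. Its RNA was not analysed here, and it enters only the promoter counts below. The genes were chosen by function, with the DKO and WT signals of these arrays already known, so the differences below are a description and their adjusted p-values are no independent evidence.

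Cells without lineage markers and with the surface protein Sca1 (Lin-Sca1+) were sorted from the marrow of tibias and femurs. The mice lacking both receptors (Nr4a1 Nr4a3 double knockout, DKO) came from crosses of the single knockouts on a C57BL/6 and 129SvJ hybrid background. The wild-type (WT) mice were of the same age, 2 to 3 weeks, and their labels give no strain, so genotype and background cannot be told apart. Each group had 3 Affymetrix arrays. The RNA on an array was a pool of 10 to 20 mice, and errors describe the spread of such pools and not of single animals.

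These factors direct the choices of lymphoid precursors. Tbx21 (T-bet) and Eomes are T-box factors of NK cells and type 1 lymphocytes and bind the genes of interferon gamma and cytotoxic granules. Id2 and Id3 are helix-loop-helix (HLH) proteins without a DNA-binding region. They pair with E proteins and keep them from DNA, and Id2 is needed for NK cells and ILCs. Gata3 and Bcl11b act in T cells and group 2 ILCs, Zbtb16 (PLZF) marks NKT cells and ILC precursors, and Nfil3 and Tox are needed for the NK and ILC lineages. Several are not limited to lymphocytes, since early progenitors and dendritic cells, for example, also express some of them.

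Values are MAS5 signals, the Affymetrix summary of a probe set on a linear scale, as deposited. The median signal of an array lay between 91.6 and 109.5 in DKO and between 101.5 and 122.5 in WT. Of the targeted genes, Nr4a1 had a signal of 21.4 ± 12.9 in DKO and 1065 ± 230 in WT (SD, n = 3 each). Nr4a3 was dim on its 3 probe sets and by itself does not check the labels. Its signals on 1421079_at were 20.9, 4.0 and 0.6 in DKO and 40.4, 61.8 and 51.5 in WT, without overlap. On 1438796_at and 1421080_at the groups overlapped. The WT pools were spread widely in neutrophil markers, with mean levels of -0.04, 1.59 and -1.38 in WT replicates 1 to 3 (log2, centred on each gene). WT replicate 2 had the highest of these levels and the lowest array quality weight of the 6 arrays, 0.63. Where leaving out WT replicate 2 changed a call of a member or moved a difference by over 1.5 times, the value without it is given.

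Tbx21, Eomes and Id2 rose in DKO cells and Tox fell. Differences were taken on log2(signal + 16), DKO minus WT, with a standard error (SE). Tests used limma over the 27022 probe sets left after removing the dimmest 40%, with Benjamini-Hochberg adjusted p below 0.05 counted as rose or fell. Of the 19 member probe sets 15 were tested and 4 were too dim, namely 1 of Eomes, 1 of Id2 and 2 of Bcl11b. Among the tested, 3 rose, 1 each of Tbx21, Eomes and Id2, where 0.807% of all tested probe sets rose, and 1 fell (Tox), where 0.563% fell. At an unadjusted p under 0.05 there were 10 of 15, where 14.2% of all tested probe sets were in either direction. The groups did not overlap for 12 of the 19 probe sets, 10 of them higher in DKO and 2 lower. The same held for 7.70% and 8.68% of all 45037 probe sets. The comparison of DKO with WT was in view when the list was drawn up, so nothing is read from these shares. Over the 27022 tested probe sets the median log2 difference was -0.05.

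**Figure D1:**
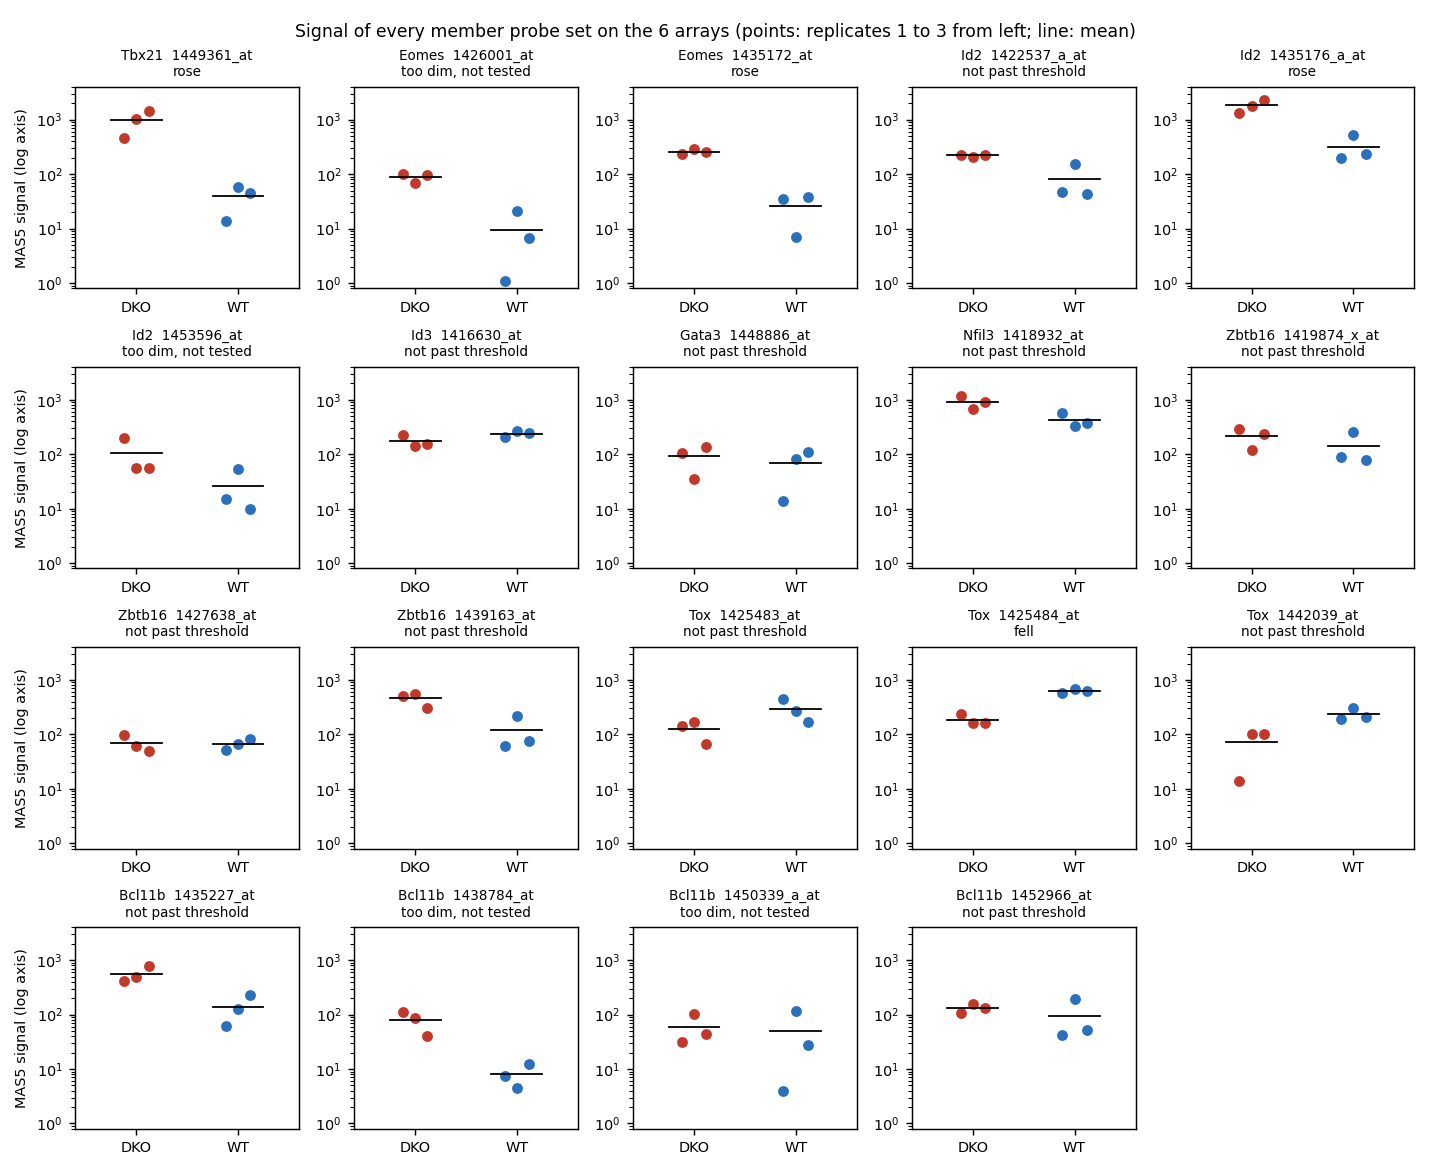
MAS5 signal (log axis) of each of the 19 member probe sets on the 3 DKO and 3 WT arrays, with a line at each group's mean. The 3 Tbx21 points of DKO lie between 462 and 1442, above the WT points at 13.6 to 58.4, and the Tox probe set 1425484_at has its 3 DKO points, 159 to 237, below the WT points at 587 to 674.

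Tbx21, the master regulator of type 1 immunity, differed most among the members. Its probe set 1449361_at had signals of 462, 1025 and 1442 on DKO arrays 1 to 3, against 13.6, 58.4 and 45.5 on WT arrays 1 to 3. The lowest DKO array was far above the highest WT array, and within DKO the signals spread about as widely as in WT on the log2 scale (SD 0.83 and 0.70). The log2 difference was 4.13 ± 0.51 (SE), adjusted p = 0.00233. It stayed past the threshold with each array left out in turn, between 3.73 and 4.58 with adjusted p up to 0.0276. The WT mean signal of Tbx21, 39.2, lay below the filter's signal of about 53.2, so the probe set passed the filter through its DKO signals. In the limma fit without a filter the adjusted p was 0.00821.

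Eomes, the T-box relative of Tbx21 in NK cells and memory T cells, rose on its brighter probe set. On 1435172_at the signals were 234, 295 and 250 in DKO, against 34.5, 7.1 and 37.3 in WT. The 3 DKO pools lay close together (SD 0.16 on the log2 scale), and the WT signals were low. The log2 difference was 2.79 ± 0.47, adjusted p = 0.0146. With any 1 DKO array left out it lay between 2.70 and 2.86 and did not pass, with adjusted p = 0.0708, 0.0683 and 0.0764 without DKO replicate 1, 2 and 3. A gene this dim in WT passed the filter on low values through its DKO signals. The second probe set, 1426001_at, was too dim to be tested, with signals of 98.8, 69.9 and 97.0 in DKO and 1.1, 20.6 and 6.7 in WT. The groups did not overlap there, and in the fit without a filter the difference was 2.10 ± 0.47 (limma adjusted p = 0.108).

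Id2, the inhibitor of E proteins in NK cells and ILCs, rose on 1 of its 3 probe sets. Signals of 1435176_a_at were 1331, 1799 and 2339 in DKO, against 198, 526 and 235 in WT. Each DKO pool lay above the highest WT pool, WT replicate 2. The log2 difference was 2.54 ± 0.37, adjusted p = 0.00614. It was 2.95 without WT replicate 2 (adjusted p = 5.76e-04) and 2.35 without DKO replicate 3, where the call was lost (adjusted p = 0.0573). On 1422537_a_at the signals were 225, 210 and 228 in DKO and 46.9, 152 and 43.2 in WT. This difference, 1.47 ± 0.48, did not pass (adjusted p = 0.177), but did without WT replicate 2 (1.96, adjusted p = 0.0474). The dim probe set 1453596_at had 198, 57.1 and 56.6 in DKO and 14.9, 53.3 and 10.0 in WT, a difference of 1.45 ± 0.61 that was not tested after the filter and was 0.93 without DKO replicate 1. For the mean of the 3 probe sets the difference was 1.82 ± 0.45 and the call was lost (adjusted p = 0.0783).

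Id3, the second Id protein on the list, acts in T cell development and in restraining innate-like T cells. Its signals of 222, 141 and 157 in DKO overlapped those of 210, 263 and 241 in WT. The log2 difference of -0.44 ± 0.37 did not pass (adjusted p = 0.639). The difference between the changes of Id2 and Id3 was not tested.

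Among the zinc finger and basic leucine zipper factors, Nfil3 is a leucine zipper factor needed for NK cells and ILCs. Its signals were 1166, 689 and 904 in DKO and 567, 328 and 368 in WT, so the lowest DKO pool was above the highest WT pool. The log2 difference was 1.11 ± 0.32, and it did not pass (adjusted p = 0.125). It lay between 0.92 and 1.33 with each array left out, with adjusted p of 0.146 or more.

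Zbtb16 encodes PLZF, a factor of NKT cells and ILC precursors, and its 3 probe sets disagreed in size. On 1439163_at the signals were 507, 563 and 308 in DKO and 61.6, 218 and 75.6 in WT. The groups did not overlap, and the difference of 1.96 ± 0.47 did not pass (adjusted p = 0.0720). With 1 array left out it passed in 1 of 6 cases, without WT replicate 2 (2.45, adjusted p = 0.0135), with adjusted p up to 0.229. Of 10 settings with all arrays kept, it passed in 1, array quality weights (adjusted p = 0.0271). On 1419874_x_at the groups overlapped, with 291, 119 and 237 in DKO and 88.4, 255 and 79.6 in WT (0.65 ± 0.51, adjusted p = 0.611). Without WT replicate 2 this was 1.13, and with any other array left out it lay between 0.38 and 1.00, with no call. The third, 1427638_at, had 97.0, 61.9 and 50.4 in DKO and 52.7, 66.7 and 80.7 in WT (0.03 ± 0.45, adjusted p = 0.988). For the mean of the 3 probe sets the difference was 0.88 ± 0.44 and did not pass (adjusted p = 0.392). Probe sets with the ending x_at can bind related transcripts.

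Gata3, the factor of T cells and group 2 ILCs, was dim and variable. Its probe set had signals of 107, 35.4 and 137 in DKO and 13.7, 83.5 and 110.0 in WT. The groups overlapped, and the difference was 0.46 ± 0.63 (adjusted p = 0.804). Without WT replicate 1, the lowest of the 6, it was -0.18, and without WT replicate 2 it was 0.69, so the data give no direction for Gata3.

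Bcl11b, which commits precursors to the T lineage and also serves group 2 ILCs, had 4 probe sets. On the brightest, 1435227_at, signals were 408, 496 and 781 in DKO and 61.3, 124 and 233 in WT. The groups did not overlap, and the difference of 2.00 ± 0.46 did not pass the threshold (adjusted p = 0.0611). Of 10 settings with all arrays kept, it passed in 2, array quality weights (adjusted p = 0.0470) and replicate number as a block (adjusted p = 0.0374). With 1 array left out it passed in 1 of 6 cases, without WT replicate 3 (2.42, adjusted p = 0.0298), with adjusted p up to 0.216. The dim 1438784_at, with 111, 85.4 and 40.4 in DKO and 7.4, 4.4 and 12.2 in WT, also showed no overlap (1.92 ± 0.47, not tested after the filter). The 2 others overlapped between groups. On 1452966_at the difference was 0.66 ± 0.53 (adjusted p = 0.619), and on 1450339_a_at, too dim to be tested, it was 0.52 ± 0.70. Without WT replicate 2 these were 1.23 and 1.24, and without WT replicate 1 they were 0.32 and -0.13, with no call. For the mean of the 4 Bcl11b probe sets the difference was 1.27 ± 0.475 and did not pass (adjusted p = 0.242).

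Tox, a high mobility group protein needed for CD4 T cells, NK cells and ILCs, was the member that fell. Signals of 1425484_at were 237, 159 and 159 in DKO and 587, 674 and 634 in WT. The WT pools lay close together (SD 0.10 on the log2 scale), with the DKO pools well below them. The log2 difference was -1.71 ± 0.32, adjusted p = 0.0256. With 1 array left out it lay between -1.89 and -1.62 and passed in 1 of 6 cases, without WT replicate 2, with adjusted p up to 0.10. The call was lost with replicate number as a block (adjusted p = 0.0532) and without an intensity trend (adjusted p = 0.0527). The other two probe sets were lower in DKO too and did not pass. On 1442039_at the signals were 13.7, 99.7 and 102 in DKO and 193, 305 and 206 in WT (-1.73 ± 0.56, adjusted p = 0.172). Without DKO replicate 1, the lowest of these, the difference was -1.07. On 1425483_at they were 145, 172 and 66.8 in DKO and 444, 268 and 171 in WT, with overlap between the groups (-1.09 ± 0.47, adjusted p = 0.319). For the mean of the 3 Tox probe sets the difference was -1.51 ± 0.37 and the call was lost (adjusted p = 0.0782). Stem cell markers fell in 6 of 13 tested genes and 0 rose, where 0.633% of all tested genes fell. Those with the smallest p were Mecom, Mllt3, Hlf and Procr, between -1.66 and -1.29 (limma adjusted p up to 0.0111). The 6 were 2 without WT replicate 1 and 0 without an intensity trend. Their summed signal was 20479 to 22905 in DKO and 39374 to 47174 in WT. Their part in the Tox difference was not tested.

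**Figure D2:**
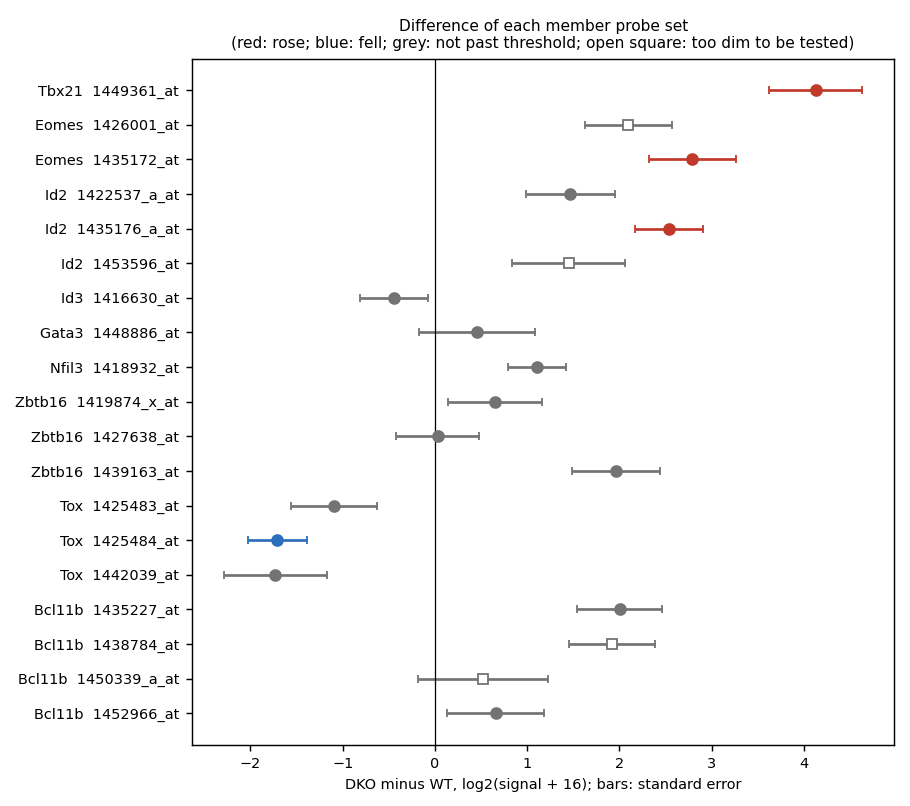
Log2 difference (DKO minus WT) with its standard error for the 19 member probe sets, red where it rose, blue where it fell, grey where it did not pass, open squares where the probe set was too dim to be tested. The 3 Tox probe sets and that of Id3 lie below 0, and the other 15 lie above it.

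The stretch of DNA before the transcription start is shown for the 3 genes that rose together, as the region where NR4A receptors, T-box factors or E proteins could bind. Sequences are from RefSeq (build GRCm38.p6), 250 bases ending at the base before the annotated start, on the gene's strand. Windows were found for 8 of the 10 genes, not for Zbtb16 and Tox, and Tcf7 had 2. Capitals mark an E-box, CANNTG, the binding motif of E proteins, which reads the same on both strands.
Tbx21 (chr11:97115332-97115581, minus strand): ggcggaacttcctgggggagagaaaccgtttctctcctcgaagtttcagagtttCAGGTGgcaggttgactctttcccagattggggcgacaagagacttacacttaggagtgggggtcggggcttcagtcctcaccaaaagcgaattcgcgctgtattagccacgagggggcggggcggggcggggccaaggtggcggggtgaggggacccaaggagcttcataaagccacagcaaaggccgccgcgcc
Eomes (chr9:118477939-118478188, plus strand): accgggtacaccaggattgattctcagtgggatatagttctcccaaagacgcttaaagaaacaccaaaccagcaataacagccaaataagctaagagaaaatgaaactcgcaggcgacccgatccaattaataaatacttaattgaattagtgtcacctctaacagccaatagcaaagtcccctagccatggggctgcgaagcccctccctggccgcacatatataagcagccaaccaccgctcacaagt
Id2 (chr12:25096093-25096342, minus strand): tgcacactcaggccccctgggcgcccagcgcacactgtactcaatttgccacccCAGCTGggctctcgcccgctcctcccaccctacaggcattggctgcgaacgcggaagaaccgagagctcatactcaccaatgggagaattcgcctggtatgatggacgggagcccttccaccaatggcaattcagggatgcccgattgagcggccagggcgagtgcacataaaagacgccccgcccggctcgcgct

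Tbx21 and Id2 each held 1 E-box, starting at position -196 from the start in both, and Eomes held none. Among the 9 windows of the members 4 held an E-box, where 66.2% of all 32851 windows did. The NR4A monomer site AAAGGTCA (NBRE), searched on both strands, was in 1 of the 9 windows, the second of Tcf7, and in 1.34% of all windows. The T-box site AGGTGTGA, on both strands, was in 0 of the 9 and in 1.12% of all. An E-box can overlap the T-box site in part, and no motif lies within another. A match is a description of letters and not a bound site, and the absence of letters in these windows says nothing about the factors.

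**Figure D3:**
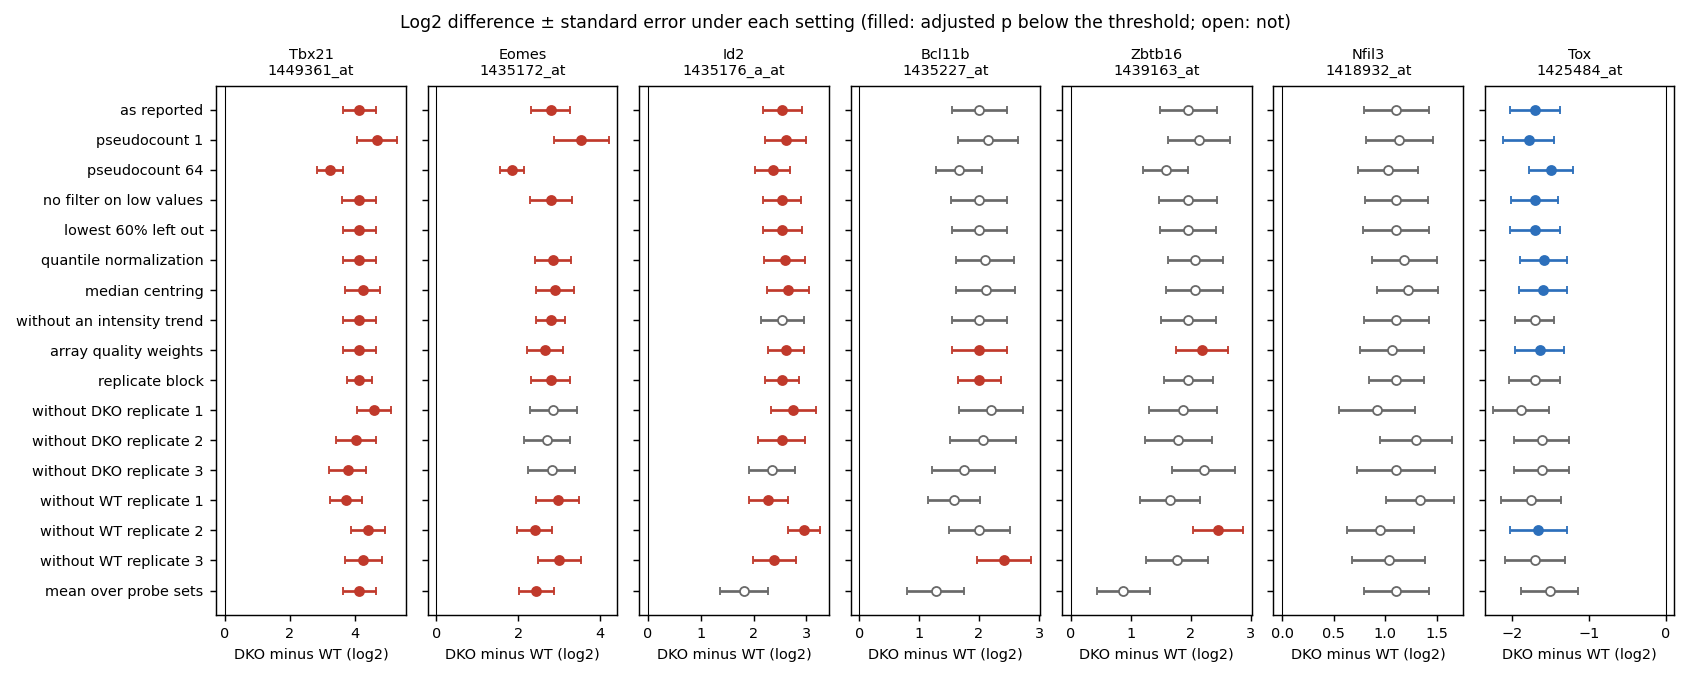
Log2 difference (DKO minus WT) with its standard error for the brightest tested probe set of 7 members under each setting, filled where the adjusted p was below 0.05. The Tbx21 points are filled in every setting shown, those of Eomes and Id2 in most, and those of Nfil3 in none.

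Genes whose profile over the 6 arrays lay nearest to each changed member were found by the root mean square difference of log2 values centred on each gene. This likeness rests mostly on the difference between the groups. For Tbx21 the nearest were Jchain, the J chain of antibodies (0.36), Lipg, a lipase (0.40), and Gzma, granzyme A (0.40). Those nearest to Eomes were Fcer1a, the alpha chain of the IgE receptor (0.30), the interferon-inducible GTPase gene Iigp1 (0.33) and Hs3st3b1, a heparan sulfate enzyme gene (0.37). Around Id2 lay Ms4a4b, a membrane protein gene of T cells (0.21), the light chain segment Igkv9-120 (0.26) and the host RNA Snhg3 (0.27). Ms4a4b had signals of 1162, 1225 and 1977 in DKO and 113, 318 and 167 in WT. Near Tox were Rasgef1b (0.21), Atg14, an autophagy gene (0.21), and Zfp672, a zinc finger gene (0.21), none past the threshold (adjusted p = 0.0582, 0.0999 and 0.103).

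Type 1 effector genes, many of them bound by Tbx21 and Eomes in NK cells and T cells, were mostly higher in DKO. Of 22 tested genes, each by its brightest probe set, 4 rose and 0 fell, where 1.08% of all 11529 genes rose and 0.633% fell. The log2 difference was above 0 in 20 of the 22, with a median of 1.43 against -0.01 over all genes. Genes dim in WT entered this count through their DKO signals, so it leans toward rises. Ifng, interferon gamma, had signals of 259, 424 and 463 in DKO and 6.5, 10.0 and 79.1 in WT (3.34 ± 0.57, adjusted p = 0.0161). With 1 array left out its call held in 2 of 6 cases. Gzma and Gzmb, both granzymes, rose by 4.06 ± 0.42 and 4.72 ± 0.49, and the chemokine Ccl5 by 2.95 ± 0.41. These 3 passed whichever array was left out. Perforin, Prf1, the pore protein of the same granules, overlapped between the groups, with 681, 742 and 459 in DKO and 593, 625 and 528 in WT (0.08 ± 0.29, adjusted p = 0.938). The NK receptor genes Ncr1 and Klrd1 were at 2.15 ± 0.56 and 2.30 ± 0.52 and did not pass (adjusted p = 0.0979 and 0.0542). S1pr5, which guides the exit of NK cells from marrow, was at -1.76 ± 0.77 (adjusted p = 0.324), and Il12rb2, an interleukin 12 receptor chain, at -0.29 ± 0.42 (adjusted p = 0.820). Il2rb, the interleukin 2 and 15 receptor chain, had 445, 287 and 289 in DKO and 32.3, 153 and 58.1 in WT (2.05 ± 0.50, adjusted p = 0.0729). The summed signal of the 25 genes with a probe set was 15872 to 21388 in DKO and 5558 to 7457 in WT. In bulk RNA, fewer cells of a type and less RNA per cell cannot be told apart, and likewise more of either.

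T lineage genes, which Gata3, Bcl11b and Tcf7 help to set up, were higher in part. Of 14 tested, 5 rose and 0 fell, where 1.08% of all genes rose and 0.633% fell, with a median of 1.20. Cd3e and Themis lay below the filter's signal of about 53.2 on every WT array and passed it through their DKO signals, and with no filter 2 genes of the list rose. Thy1, a surface marker of T cells and ILCs, had 912, 1548 and 1081 in DKO and 186, 165 and 305 in WT (2.36 ± 0.33, adjusted p = 0.00545). Cd3e, a chain of the T cell receptor complex, had 261, 186 and 247 in DKO and 3.3, 18.7 and 17.9 in WT (3.11 ± 0.46, adjusted p = 0.00706). The thymocyte signalling gene Themis rose by 3.26 ± 0.58 and the receptor chain genes Cd3d by 2.43 ± 0.44 and Cd3g by 3.19 ± 0.61. With 1 array left out Thy1 passed in 6 of 6 cases, Themis and Cd3d in 3 of 6 each, and Cd3e in the 3 in which it cleared the filter. The coreceptor genes Cd4 and Cd8b1 and the pre-T receptor gene Ptcra were too dim to be tested, with no array above 73.9, 39.3 and 35.5. Cd27, Cd247 and Lat were lower in DKO and did not pass, at -0.61, -0.41 and -0.26 (adjusted p = 0.279, 0.499 and 0.716). The summed signal of the 19 genes was 8278 to 11007 in DKO and 7301 to 8463 in WT, so on this linear sum the groups overlapped.

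Group 2 ILC genes, several of them under the control of Gata3 in those cells, gave no call. Of 8 tested, 0 passed in limma and 4 had an unadjusted p under 0.05 (16.3% of all genes did), with 7 above 0 and a median of 1.07. With no filter the median over 15 genes was 0.40, again with 0 calls. The nearest to the threshold were Il18r1, an interleukin 18 receptor chain also among the type 1 genes, at 1.33 ± 0.30 (adjusted p = 0.0589), and the chemokine receptor gene Cxcr6 at 1.96 ± 0.54 (adjusted p = 0.114). The cytokine gene Il13 was too dim to be tested, with 74.1, 87.3 and 88.8 in DKO and 8.2, 7.2 and 23.0 in WT, and Il5 reached 38.4 on 1 DKO array. The summed signal of 15 genes was 3786 to 5137 in DKO and 2531 to 2803 in WT.

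The E proteins, the partners that Id2 withholds from DNA, and other HLH factors showed no call. Of 8 tested genes 0 passed in limma and 1 had an unadjusted p under 0.05, against 16.3% of all genes, and all 8 had a log2 difference below 0, with a median of -0.40. Under median centring the median of the list was -0.29. Tcf3, the gene of E2A, had 358, 408 and 332 in DKO and 514, 466 and 476 in WT (-0.40 ± 0.29, adjusted p = 0.582). Tcf4, the gene of E2-2, had 3188, 3510 and 2835 in DKO and 4243, 3443 and 4989 in WT (-0.40 ± 0.19, adjusted p = 0.367). Tcf12, the gene of HEB, was at -0.11 ± 0.18 (adjusted p = 0.847). Ebf1, a B cell factor that works with E2A, had 68.6, 112 and 130 in DKO and 194, 412 and 229 in WT (-1.27 ± 0.43, adjusted p = 0.199). Of the other Id genes, Id1 was too dim to be tested, with 74.8, 55.2 and 84.3 in DKO and 25.5, 32.8 and 3.5 in WT. Id4 was at -0.13 ± 0.64 (adjusted p = 0.957).

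Other transcription factors of lymphocytes gave no call. Of 22 tested, 0 passed in limma, where 1.08% of all genes rose and 0.633% fell, and 8 had an unadjusted p under 0.05, where 16.3% of all genes did. There were 12 above 0 and 10 below, with a median of 0.06. Ikzf3, the gene of Aiolos, had 2543, 2251 and 2973 in DKO and 500.0, 2360 and 454 in WT (1.64 ± 0.49, adjusted p = 0.143). WT replicate 2 alone lay among the DKO values, and Ikzf3 passed without it. Sox4, a factor of early lymphoid cells, was at -0.89 ± 0.24 (adjusted p = 0.109). The groups did not overlap in 8 of the 22 genes. Over all 45037 probe sets, 7.70% were higher in DKO without overlap and 8.68% lower. Among these 8 genes, Prdm1, the gene of Blimp-1, and Maf were higher and did not pass, at 1.10 ± 0.45 and 1.06 ± 0.35 (adjusted p = 0.293 and 0.181). Sox4, Irf2, Klf2, Notch1, Stat4 and Zeb1 were lower, and none of them passed. Runx3, which works with Tbx21 in type 1 cells, was at 0.25 ± 0.19 (adjusted p = 0.590), and Rora, a factor of group 2 ILCs, at -0.22 ± 0.30 (adjusted p = 0.804). Tox2, the relative of Tox, was too dim to be tested, with 79.3, 64.6 and 159 in DKO and 31.1, 10.8 and 3.6 in WT.

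**Figure D4:**
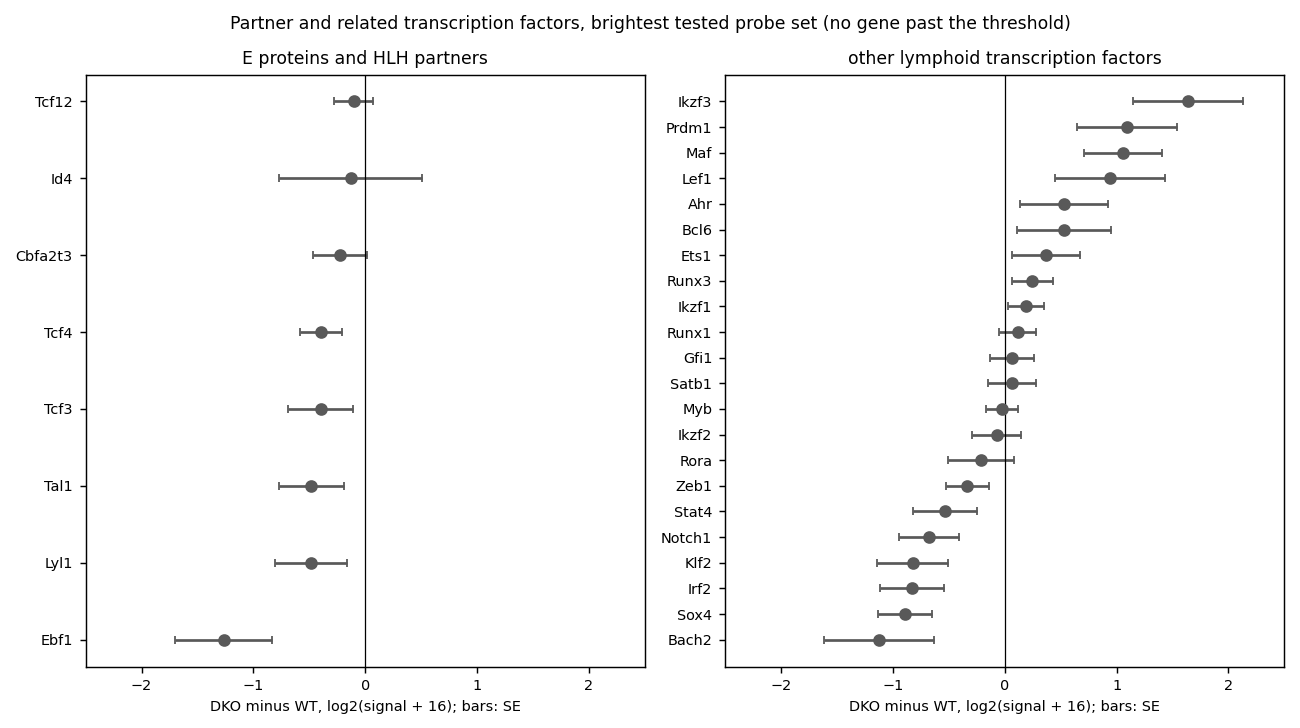
Log2 difference (DKO minus WT) with its standard error for the tested genes of the E protein list (left) and of the list of other lymphoid transcription factors (right). All 8 genes on the left lie below 0, those on the right spread over both sides, and none passed the threshold.

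Basophil, mast cell and eosinophil markers rose in 7 of 10 tested genes, where 1.08% of all genes rose, with a median of 3.01. The 7 were 5 with no filter and 3 without DKO replicate 1 or 3. They were 4 without DKO replicate 2, without WT replicate 1, with a pseudocount of 1 or without an intensity trend. Their summed signal over 11 genes was 25880 to 32846 in DKO and 1496 to 12600 in WT. Much of it came from Prg2, at 14851 to 17485 in DKO and 9998 on WT replicate 2, the WT array with the highest sum. Prg2 itself did not pass (adjusted p = 0.0653). The rises were led by Ms4a2 (5.38 ± 0.33), the basophil protease Mcpt8 (3.88 ± 0.41), Cpa3 (3.65 ± 0.40) and Fcer1a (2.94 ± 0.46), with adjusted p up to 0.00932. Fcer1a, Ccr3 and Cyp11a1 lay below the filter's signal of about 53.2 on every WT array and passed it through their DKO signals. Among dendritic cell markers 3 of 8 rose (H2-Ab1, Irf8 and Cd74) and Flt3 fell, where 1.08% of all genes rose and 0.633% fell. With 1 array left out H2-Ab1 passed in 6 of 6 cases, Flt3 in 3, Irf8 in 2 and Cd74 in 1. The list had a summed signal over 10 genes of 6249 to 9190 in DKO and 3201 to 3896 in WT. Xcr1 and Batf3, markers of cross-presenting dendritic cells, were dim, averaging 27.2 and 22.5 in DKO and 28.4 and 17.7 in WT. B lineage markers were led by Cd72, which fell, the 1 call among 8 tested, where 0.633% of all genes fell. Cd72 passed in 4 of 6 cases with 1 array left out, not without DKO replicate 3 or WT replicate 1, and not without a trend. The B lineage summed signal over 9 genes was 1729 to 2274 in DKO and 3098 to 10687 in WT. For neutrophil markers (8 tested) and erythroid markers (6 tested) there was no call in limma, with 0 and 3 at an unadjusted p under 0.05, where 16.3% of all genes were. Of these 3 erythroid genes, Car1 was higher in DKO (2.48 ± 0.73), and Slc4a1 and Alas2 were lower (-2.25 ± 0.66 and -1.50 ± 0.65). Erythroid markers gave 1 call without WT replicate 2 or with array quality weights and 2 without WT replicate 3. The summed signals of the neutrophil and erythroid lists overlapped, at 29255 to 51262 and 4410 to 8657 in DKO and 17251 to 83326 and 3187 to 39511 in WT. These cell types can express some of the members. Whether they contribute to the Id2, Nfil3, Gata3 or Tbx21 signals was not tested.

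**Figure D5:**
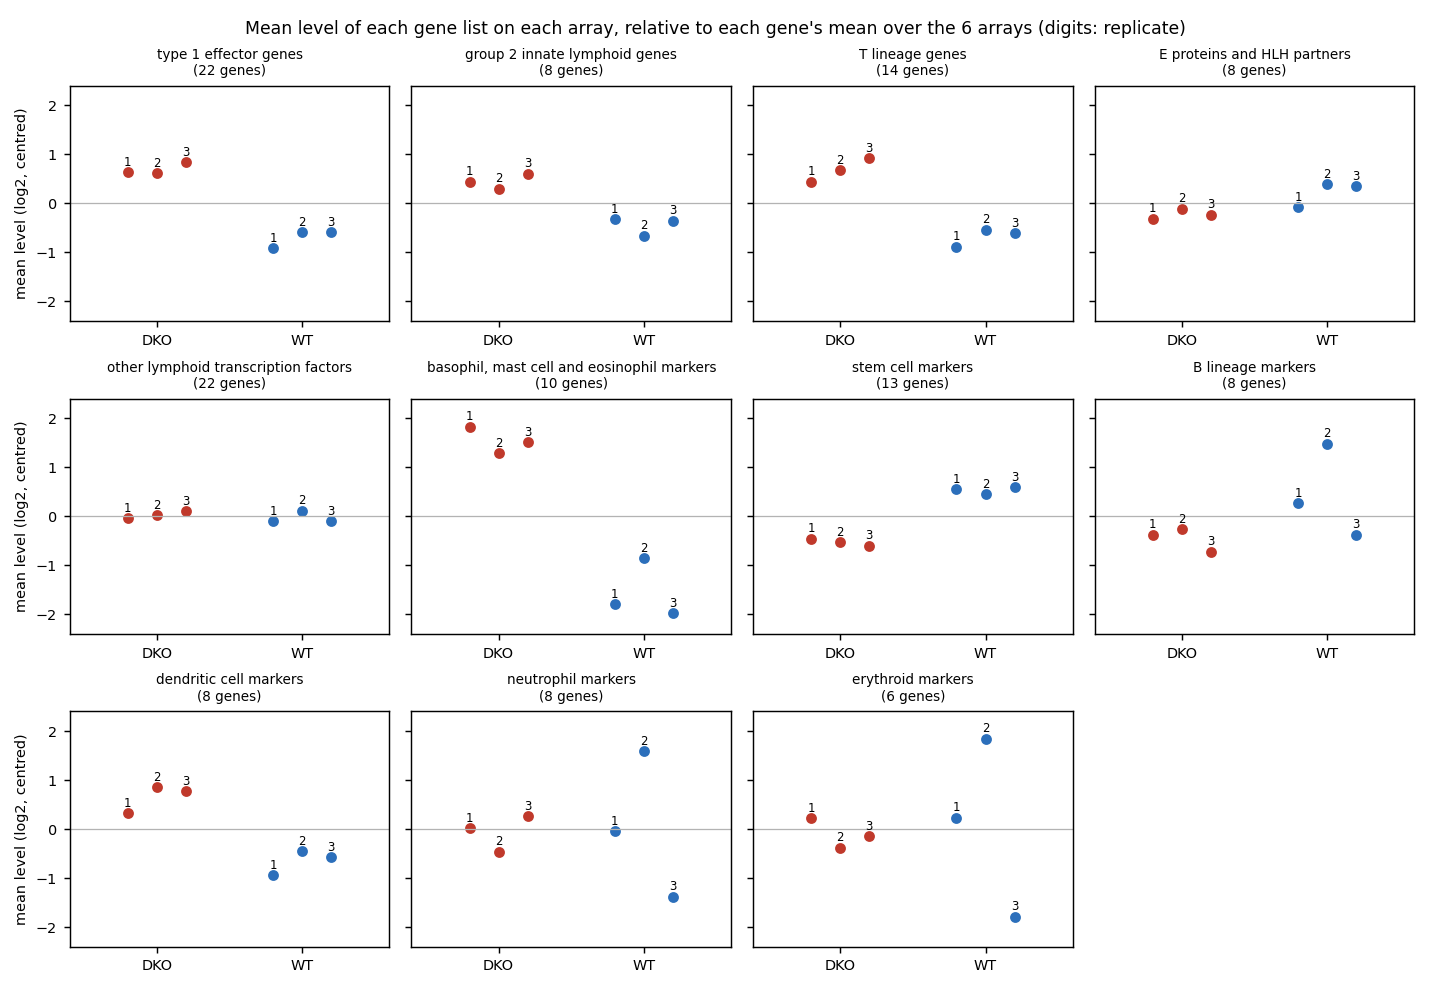
Mean log2 level of each gene list on each array, centred per gene, with the replicate number beside each point. The type 1 effector list lies at 0.61 to 0.83 in DKO and -0.91 to -0.59 in WT, and the stem cell markers the other way. For neutrophil, erythroid and B lineage markers WT replicate 2 is the highest WT pool and WT replicate 3 the lowest.

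Within the groups the pools did not rank alike for each member. DKO replicate 1 had the lowest signals of Tbx21, Id2 (1435176_a_at) and Bcl11b (1435227_at) among the DKO pools and the highest of Nfil3. In the lists, the mean levels of the type 1 effector genes in DKO replicates 1 to 3 were 0.63, 0.61 and 0.83. Those of the T lineage genes were 0.44, 0.67 and 0.92. The basophil, mast cell and eosinophil markers had their highest mean level in DKO replicate 1, at 1.82, against 1.29 in DKO replicate 2 and 1.52 in DKO replicate 3. With 3 pools a group these orders are values only.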

How the data were processed

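RNA of Lin-Sca1+ marrow cells was measured on 6 arrays, 3 DKO and 3 WT. The values the authors deposited are linear intensities, MAS5 signals, 1 for each probe set on each array. MAS5 is named in the submitters' processing notes, with no version. The trimmed mean of each deposited array, without 2% at each end, was 500.0, and this scaling was kept. After removal of 64 control probe sets, 45037 remained, 34945 with 1 gene symbol in the platform annotation, 932 with several and 9160 unnamed there. Of those with 1 symbol, 34741 matched the RefSeq table of GRCm38.p6. Detection calls and batches were not used here.

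Signals became log2(signal + 16). Probe sets with the lowest 40% of means (below a signal of about 53.2) were left out, and 27022 were fitted with limma 3.58.1 in R 4.3.3 (lmFit, eBayes with an intensity trend, two-sided, no block). Probe sets below the filter were taken from the same fit on all 45037. Log2 differences understate changes of dim genes. A listed gene stands by its brightest tested probe set. Fits were tested on simulated data. Precision is limited by the number of arrays.

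Members and gene lists were chosen with earlier results of these data known. Named are all members, the targeted genes, per list up to 4 called genes by smallest p or else the 2 with smallest p, and the 3 genes nearest each changed member; other genes were chosen after their values were seen. Lists are described by counts and medians, without a set test.

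Same-numbered DKO and WT pools had correlated deviations of 0.14, -0.03 and 0.05, so the numbers were not taken as pairs. Alternatives were pseudocounts 1 and 64, no filter or 60% left out, quantile normalization, median centring, a replicate block, array quality weights, no trend, leaving out single arrays, and averaging the probe sets of a gene. Figures used matplotlib 3.10.9 in Python 3.11.15.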

Additional observations from a re-analysis of the deposited data

How the results depend on the processing

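With 1 array left out, the member probe sets past the threshold numbered 1 to 6 (4 with all arrays): 2 when DKO replicate 1 or DKO replicate 2 was dropped, 1 when DKO replicate 3 was, and 6 when WT replicate 2 was. Without an intensity trend 2 passed, Tbx21 and Eomes, and with array quality weights 6. Tbx21 passed in all settings run and Nfil3, Id3 and Gata3 in none. The count over all tested probe sets, 370, was 208 with no filter, 88 without a trend, 563 with array quality weights and 104 to 469 with 1 array left out, the 4 lowest (104 to 166) when any DKO array or WT replicate 1 was dropped. Type 1 effector genes gave 4 calls, but 2 with the lowest 60% left out or without a trend, 7 with array quality weights, and 3 to 7 with 1 array left out, the 7 when WT replicate 2 was dropped. T lineage genes gave 5, but 2 with no filter, with the lowest 60% left out or without a trend, and 1 to 5 with 1 array left out: 3 when DKO replicate 1 was dropped, 1 when DKO replicate 2 or 3 was, and 2 when WT replicate 1 was. With array quality weights, group 2 innate lymphoid genes and other lymphoid transcription factors gave 1 call each, and other lymphoid transcription factors gave 0 to 1 with 1 array left out, the 1 being Ikzf3 when WT replicate 2 was dropped. With a replicate block Tox was lost and Bcl11b gained (adjusted p = 0.0532 and 0.0374), and the number of member probe sets past the threshold stayed at 4. Same-numbered pools did not each correlate best with each other. Signs turned, with no call, for Gata3 (-0.18 without WT replicate 1, 0.93 without DKO replicate 2), Zbtb16 1427638_at (-0.19 and -0.10 without DKO replicate 1 and WT replicate 1, up to 0.20), Bcl11b 1450339_a_at (-0.13 without WT replicate 1, 1.24 without WT replicate 2), Camp (-0.98 to 0.30 with 1 array left out) and Mmp8 (0.012 with array quality weights, -1.11 to 0.58 with 1 array left out). Eomes was left out by the filter at 60%. The causes were not tested. Dim signals in WT limit the size of the Tbx21 and Eomes differences, which were 4.68 and 3.54 with a pseudocount of 1 and 3.23 and 1.85 with a pseudocount of 64.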
